A study of Mus musculus with 6 samples.

Results

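The 7 genes described here are nuclear genes of oxidative metabolism: the cytochrome c oxidase subunits Cox4i1, Cox5b, Cox6a2 and Cox8a, the matrix enzymes Mdh2 and Pdha1, and myoglobin (Mb). They were chosen by gene name from the annotation of the array, which gave 1 probe to each, so that the set holds 7 of the 223 probes and 7 of the 203 genes named on the array. The rule itself used no measured value, but the genes were chosen with earlier results of these data known. Each was measured in soleus, a postural muscle of the lower hindlimb, from 6 mice labelled WT of strain 129/SV. Every mouse had 7 days of hindlimb suspension followed by 1 day in which the muscle bore load again. All 6 are in that 1 group, so that the data show how high each gene's signal was after reloading and how far the mice lay apart, and hold no untreated or still unloaded muscle to compare with. The labels used here state neither the age nor the sex of the mice.

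Cytochrome c oxidase is the last complex of the respiratory chain and passes electrons from cytochrome c to oxygen. Its catalytic core is encoded by mitochondrial DNA, and the subunits measured here are encoded in the nucleus and imported. Mdh2 and Pdha1 act before it: mitochondrial malate dehydrogenase closes the citrate cycle, and the E1 alpha subunit of pyruvate dehydrogenase belongs to the complex that turns pyruvate into acetyl-CoA. Myoglobin binds oxygen in the cytoplasm of the fibre, and its red colour marks oxidative muscle such as soleus.

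A signal is given in per mille of the summed signal of its array, leaving out the 2 probes 1M and 1O, and the samples are called by the number in their titles. Each array has a floor, the 10th percentile of its signals, which lay between 0.5 and 0.7 per mille, and a probe at 2 times the floor or more is called clear. All 7 genes were clear in all 6 mice, as were 57 of the 223 probes. Levels of different probes are not ranked, because spots differ in primers and hybridization. Myh7, the myosin heavy chain of the slow fibres that soleus is rich in, gave 49 to 84.4 per mille and was clear in every mouse. Of the markers fixed for other cells, 1 of 5 endothelial genes (Pecam1), 1 of 2 fat cell genes (Fabp4) and 0 of 1 connective tissue gene (Pdgfra) were clear in all mice, and no gene of the blood list was measured. The RNA came from whole muscle sections, so that fewer cells of a type and less RNA per cell cannot be told apart. With 1 array per mouse, the spread between mice cannot be told apart from that between labellings and arrays.

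The 7 genes together took 165 ± 15.6 per mille of the array total (SD, n = 6), from 143 in sample 175 to 192 in sample 202. Sample 202 lay above a gene's own mean in 6 of the 7 genes, and samples 175, 178 and 203 lay below it in 5 of 7. Each mean here and below is over the 6 mice, and the deviations from it are on the log2 scale.

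**Figure D1:**
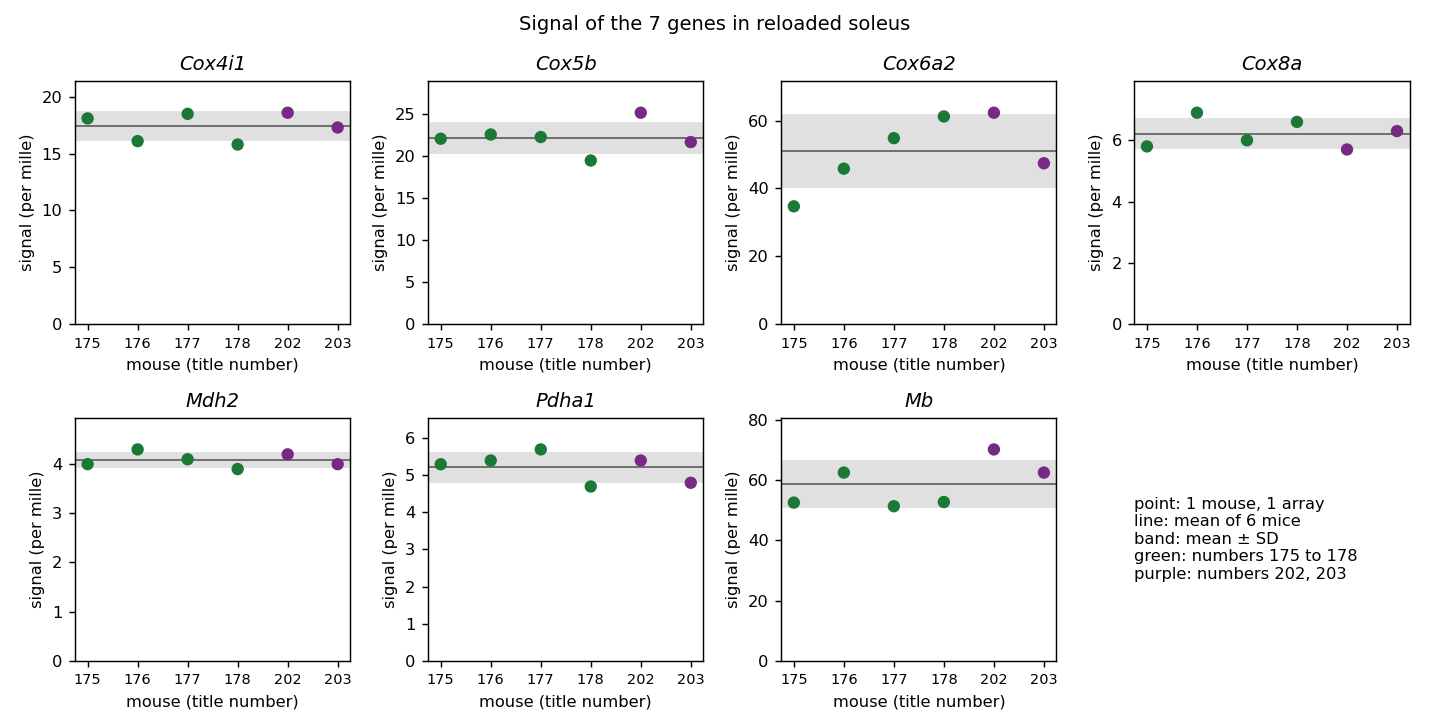
Signal in parts per mille (vertical axis, from 0) of each of the 7 genes in each of the 6 mice (horizontal axis, by title number), with the mean as a line and the mean ± SD as a grey band. Mdh2 stays between 3.9 and 4.3, whereas Cox6a2 runs from 34.7 in sample 175 to 62.3 in sample 202.

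Cox4i1 (gene number 12857), the ubiquitous form of subunit 4, at which ATP regulates the enzyme, gave 18.1, 16.1, 18.5, 15.8, 18.6 and 17.3 per mille in samples 175, 176, 177, 178, 202 and 203. The mean was 17.4 ± 1.22 per mille (SD, n = 6), and the highest mouse was 1.18 times the lowest. Samples 176 and 178 were low and the rest lay close together.

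Cox5b (gene number 12859), a matrix-side subunit that binds zinc, gave 22.1, 22.6, 22.3, 19.5, 25.2 and 21.7 per mille in the same order of samples. Its mean was 22.2 ± 1.83 per mille (SD, n = 6). Sample 178 was its lowest and sample 202 its highest, and the rest lay between 21.7 and 22.6.

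Cox8a (gene number 12868), the ubiquitous form of the small subunit 8, gave 5.8, 6.9, 6, 6.6, 5.7 and 6.3 per mille, with a mean of 6.22 ± 0.471 (SD, n = 6). Its highest mouse was 1.21 times its lowest. Samples 176 and 178, the low mice of Cox4i1, were the high mice of Cox8a.

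Cox6a2 (gene number 12862), the heart and skeletal muscle form of subunit 6a, had the widest values of the 4 subunits. It gave 34.7, 45.8, 54.8, 61.2, 62.3 and 47.4 per mille, with a mean of 51 ± 10.5 (SD, n = 6). Its highest mouse was 1.8 times its lowest. Sample 175 was the lowest mouse, and samples 178 and 202 were the highest and lay close together.

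Mdh2 (gene number 17448) gave 4, 4.3, 4.1, 3.9, 4.2 and 4 per mille, with a mean of 4.08 ± 0.147 (SD, n = 6). The 6 mice thus lay close together, and all but 1 of the 1338 deposited values move in steps of 0.1 per mille. Rounding to that step alone has an SD of 0.01 on the log2 scale at this level.

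Pdha1 (gene number 18597) gave 5.3, 5.4, 5.7, 4.7, 5.4 and 4.8 per mille, with a mean of 5.22 ± 0.387 (SD, n = 6). Samples 178 and 203 were low. The related probe for Pdha2, the testis form of the same subunit, gave 0.5 to 0.9 per mille and was not clear in all mice. Cross-hybridization between the Pdha1 and Pdha2 probes was not tested.

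Myoglobin (Mb, gene number 17189) gave 52.6, 62.6, 51.4, 52.8, 70.3 and 62.6 per mille, with a mean of 58.7 ± 7.62 (SD, n = 6). Samples 175, 177 and 178 formed a low set between 51.4 and 52.8, and samples 176, 202 and 203 were higher. Its highest mouse was 1.37 times its lowest.

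Spreads were put on 1 scale as the SD of the log2 values, given here with the chi-square 95% interval that 6 values allow. It was 0.05 (0.03 to 0.13) for Mdh2, 0.10 (0.06 to 0.25) for Cox4i1, 0.11 (0.07 to 0.27) for both Cox8a and Pdha1, and 0.12 (0.07 to 0.29) for Cox5b. Mb had an SD of 0.18 (0.11 to 0.45) and Cox6a2 one of 0.32 (0.20 to 0.78). The interval of Cox6a2 does not reach that of Mdh2, and it overlaps those of the other 5 genes. The median over the 7 genes was 0.11, beside 0.27 over all 223 probes and 0.29 over the 57 clear probes, and 6 of the 7 lay at or below the latter. In samples 175 to 178 alone the median was 0.12 for the 7 genes and 0.19 for the clear probes. Counted from the narrowest of the 57, Mdh2 was in place 1, Cox4i1 in 2, Cox8a in 3, Pdha1 in 4, Cox5b in 8, Mb in 14 and Cox6a2 in 35.

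These narrow spreads depended in part on how arrays were scaled. With each array centred on its median the 7 genes had a median SD of 0.20, against 0.28 for the clear probes, and with arrays divided by their floor 0.24 against 0.29. Mdh2 then had an SD of 0.17 and 0.21, and 0.14 after quantile normalization. Cox6a2 lay between 0.31 and 0.36 under every scaling, background and pseudocount setting tried, and fell to 0.20 without sample 175.

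**Figure D2:**
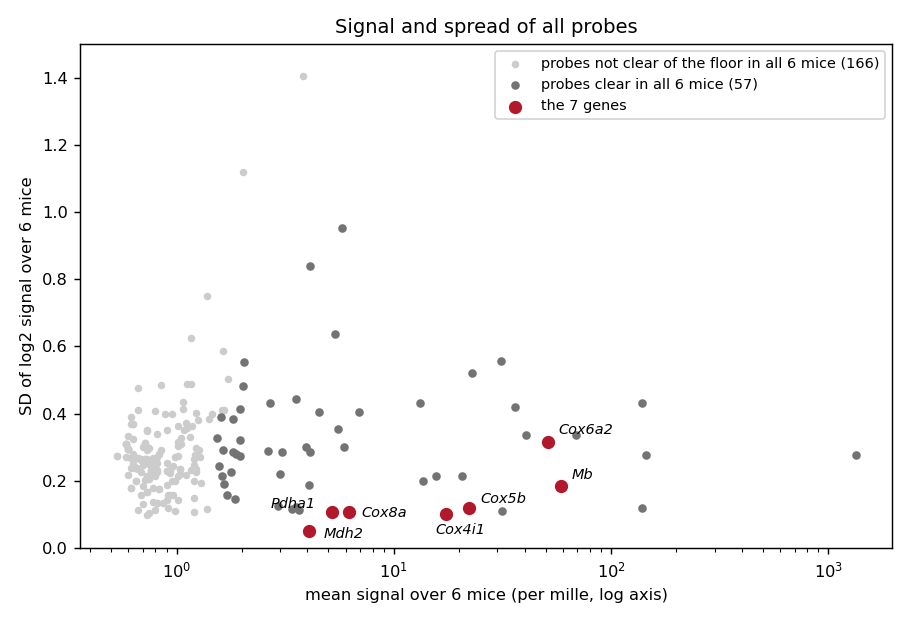
SD of the log2 values of the 6 mice (vertical axis) against mean signal in per mille (log horizontal axis) for all 223 probes, with the 57 probes clear in all mice in dark grey and the 7 genes in red. Mdh2 sits lowest of all at 0.05, Cox4i1, Cox8a, Pdha1 and Cox5b lie at 0.10 to 0.12, and Cox6a2 lies at 0.32 among the other clear probes.

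Covariation was described by the ratio of 2 genes on the same array, since a ratio does not depend on the array's scale. The measure is the SD of the log2 ratio over the 6 mice: a small value means that the ratio stayed steady, which is also so where both genes hardly varied. The ratio SD that unrelated deviations would give is the root of the summed squares of both SDs. It is therefore set beside the ratio SD over 6 mice for named pairs of the 7 genes, but not where nearest probes are listed. Unlike the ratio, it depends on how arrays were scaled, and it is on the scale of the array total unless stated. Correlations of single pairs are not given, since over the whole array 202 and 203 differed from the rest, and fewer than 6 samples remain on either side. The 21 pairs of the 7 genes had a median ratio SD of 0.20, beside 0.40 over the 1596 pairs of clear probes, which include these 21. Without Cox6a2 the other 15 pairs had a median of 0.13.

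Over all 6 mice, on the scale of the array total, Cox4i1, Cox5b, Mdh2 and Pdha1, 2 subunits and both matrix enzymes, kept the steadiest proportions. Their 6 pairs had ratio SDs between 0.08 and 0.11. Of the 1596 clear pairs, these included, 0.251% were at or below the Mdh2 and Pdha1 pair, which had 0.08 (95% interval 0.05 to 0.20). At or below the Cox4i1 and Mdh2 pair, which had 0.11 (0.07 to 0.26), were 1.32%. The ratio of Mdh2 to Pdha1 ran from 0.917 of its mean in sample 177 to 1.06 in samples 178 and 203. If the deviations of these 2 genes were unrelated, their SDs would give a ratio SD of 0.12. For Cox4i1 and Mdh2 that value was 0.11, no larger than the ratio SD measured. On the scale of the array total this pair thus shows no shared movement beyond its narrow values. With arrays centred on their median the value was 0.25, and with arrays divided by their floor 0.32, at the same ratio SD of 0.11. After quantile normalization the ratio SD was 0.27 against 0.21. On the scale of the array total, Cox4i1 had 0.09 with Cox5b, where unrelated deviations would give 0.16. It had 0.09 with Pdha1, where they would give 0.15. Cox5b and Mdh2 were on the same side of their own means in 6 of 6 mice, with a ratio SD of 0.09 where unrelated deviations would give 0.13. Some of these sides are barely set: in sample 177 both genes deviated by 0.01, the rounding SD of Mdh2, and in sample 175 Cox5b deviated by 0.0. Same-side values in all mice occurred in 3.7% of the clear pairs. Sides depend on the scaling: Cox5b and Mdh2 lay on opposite sides in 1 of 6 mice with arrays divided by their floor and in 4 of 6 after quantile normalization. Sample 178 was the lowest mouse of Cox4i1, Cox5b, Mdh2 and Pdha1 alike, and without it the gaps to unrelated deviations narrowed. Cox4i1 then had 0.10 with Cox5b against 0.12, and 0.10 with Pdha1 against 0.13. Mdh2 and Pdha1 had 0.08 against 0.10, and Cox5b and Mdh2 0.07 against 0.10. Within samples 175 to 178 the pairs of these genes ran from 0.05 to 0.13, while Mb had 0.09 with both Cox8a and Mdh2. These 4 genes were grouped after their values were seen, and the grouping has no test.

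Quantile normalization, which sets each probe by its rank, does not keep ratios. Under it the Mdh2 and Pdha1 pair had 0.11, where unrelated deviations would give 0.23, and the Cox4i1 and Cox5b pair 0.18 against 0.20. The Cox5b and Mdh2 pair had 0.23 against 0.18, so that the shared movement of this pair was not kept. Cox5b and Pdha1 had 0.27 against 0.21, and Cox4i1 and Pdha1 0.24 against 0.24. Steadier than these were Cox5b and Mb at 0.09, Cox8a and Pdha1 at 0.15 and Cox8a and Mdh2 at 0.16. The group of Cox4i1, Cox5b, Mdh2 and Pdha1 was thus no longer the steadiest. The median of the 21 pairs was then 0.28, against 0.39 over the clear pairs.

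**Figure D3:**
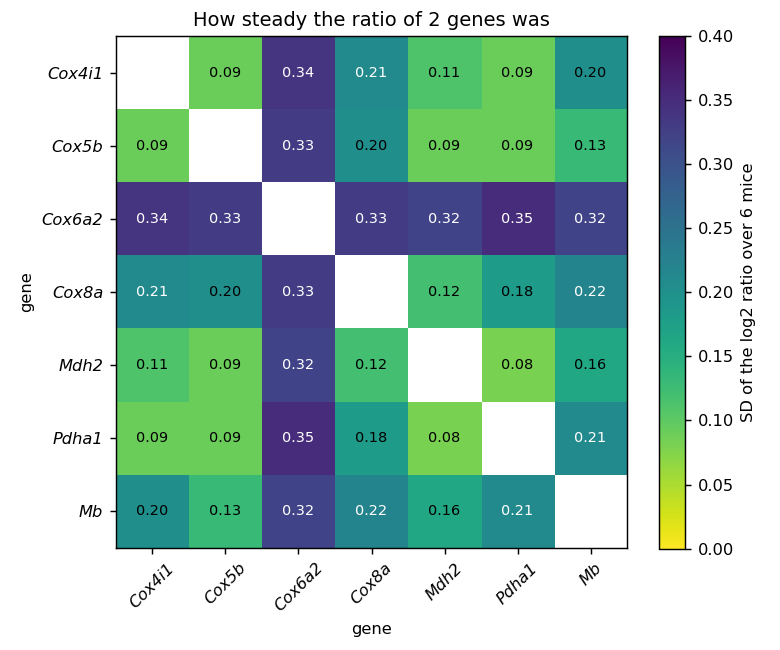
SD over the 6 mice of the log2 ratio of each pair of the 7 genes, both axes listing the genes. The pairs of Cox4i1, Cox5b, Mdh2 and Pdha1 are the light cells at 0.08 to 0.11, and every pair with Cox6a2 is dark at 0.32 to 0.35.

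The 4 subunits of the oxidase did not keep a fixed ratio to each other. Their 6 pairs had a median ratio SD of 0.27, from 0.09 for Cox4i1 and Cox5b to 0.34 for Cox4i1 and Cox6a2. Unrelated deviations of Cox4i1 and Cox6a2 would give 0.33. By comparison, the 8 pairs of a subunit with a matrix enzyme had a median of 0.11 and the 4 pairs of a subunit with myoglobin one of 0.21. The subunit pairs include 3 with Cox6a2, and the other kinds include a smaller share of pairs with it. Without Cox6a2 the subunit pairs had 0.09, 0.20 and 0.21. Those with a matrix enzyme then had 0.09 to 0.18 and those with myoglobin 0.13 to 0.22. Mdh2, with an SD of 0.05, hardly varied itself. The difference between these kinds of pairs was not tested.

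On the scale of the array total, Cox8a and Cox4i1 deviated in opposite directions in 6 of 6 mice, which some other scalings did not keep. Cox4i1 deviated from its mean by 0.06, -0.11, 0.09, -0.14, 0.10 and -0.01 in samples 175, 176, 177, 178, 202 and 203, and Cox8a by -0.10, 0.15, -0.05, 0.09, -0.12 and 0.02. Their ratio SD was 0.21 (95% interval 0.13 to 0.51), above the 0.15 that unrelated deviations would give. Among all clear pairs 2.19% had opposite sides in all 6 mice. The ratio of Cox4i1 to Cox8a was lowest in sample 176, at 0.833 of its mean, and highest in sample 202, at 1.17. With arrays centred on their median the 2 genes lay on opposite sides in 2 of 6 mice, and unrelated deviations would give 0.23, above the ratio SD of 0.21. With arrays divided by their floor they were opposite in 2 of 6, and the value for unrelated deviations was 0.29. After quantile normalization they were opposite in 5 of 6, with a ratio SD of 0.37 against 0.32. The ratio thus varied as stated under every scaling that keeps ratios, and whether the genes moved against each other depended on the scale. This pair was singled out after its values were seen.

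Of its ratios to the other 6 genes, myoglobin had the steadiest with Cox5b, at a ratio SD of 0.13 where unrelated deviations would give 0.22, and the next with Mdh2, at 0.16 against 0.19. Against Cox4i1 it had 0.20, where unrelated deviations would give 0.21, and against Pdha1 0.21, where they would give 0.21. Against Cox8a it had 0.22, where they would give 0.21, and against Cox6a2 0.32, where they would give 0.37. The ratio of Cox5b to Mb was 0.943 and 0.912 of its mean in samples 202 and 203, and 1.14 in sample 177. Within samples 175 to 178 Mb itself had an SD of 0.13. The ratio of Mb to Mdh2 and to Cox8a then varied less, with an SD of 0.09 for each pair, and that to Pdha1 had 0.17. The ratio to Cox5b stayed at 0.13. The ratios to Cox4i1 and Cox6a2 varied more, with 0.22 and 0.40.

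**Figure D4:**
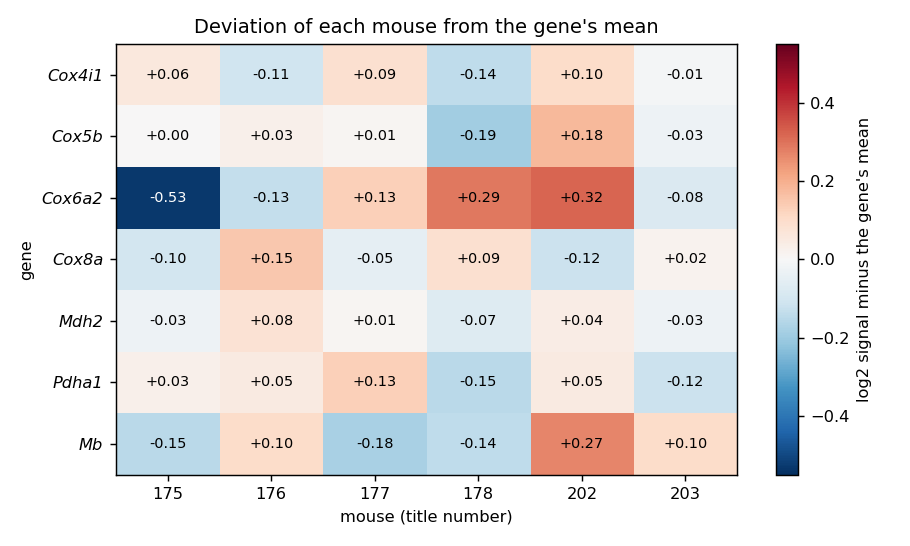
Log2 signal of each mouse minus the gene's mean (colour and printed number) for the 7 genes (rows) in the 6 mice (columns). On this scale of the array total, Cox4i1 and Cox8a have opposite signs in every column, which centring on the median or dividing by the floor changes to 2 of 6, and Cox6a2 has both the lowest value, -0.53 in sample 175, and the highest, 0.32 in sample 202.

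By the fixed rule, the 3 clear probes with the steadiest ratio to each gene were named. The probe of Rps29, a ribosomal protein gene, was among the 3 nearest to Cox4i1 (ratio SD 0.09), Mdh2 (0.10) and Pdha1 (0.07). Rps29 gave 31.6 ± 2.42 per mille (SD, n = 6), and was also nearest to the mean of the 7 genes, with 0.09. Hadh, a dehydrogenase of mitochondrial fatty acid oxidation, was near Cox5b (0.09). The probes nearest to Mb were Pole2, a subunit of DNA polymerase epsilon (0.10), Vldlr, a lipoprotein receptor (0.13), and Cox5b (0.13). Cox8a had Mdh2 (0.12), the carbonic anhydrase Car3 (0.16) and the metalloproteinase inhibitor Timp2 (0.16). A steady ratio says that the signals stayed in proportion over these 6 arrays, and narrow probes come out near each other by this measure.

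Cox6a2 had a different set of neighbours, none of them among the other 6 genes. Nearest was Ldhb, the heart-type lactate dehydrogenase subunit, with a ratio SD of 0.15, then Lpl, the lipoprotein lipase that supplies fatty acids, with 0.20, and Myh2, the myosin heavy chain of fast oxidative fibres, with 0.23. Ldhb gave 10.4, 13.4, 14.9, 14.2, 15.3 and 13.6 per mille in samples 175, 176, 177, 178, 202 and 203. Myh2 gave 11.4, 21.6, 23.3, 27.9, 32.8 and 20.7 per mille. Sample 175 was lowest and sample 202 highest in Cox6a2, Ldhb, Lpl and Myh2 alike. Ldhb, Lpl and Myh2 were picked by their ratio to Cox6a2 over these same arrays, so that a shared order is partly built in. Without sample 175 the ratio SDs to Cox6a2 were 0.14 for Ldhb, 0.18 for Lpl and 0.12 for Myh2. The SD of Ldhb itself was then 0.08. The other myosins did not share this order: Myh1 and Myh4 were lowest in sample 177, as was Myh7. Of the fast contractile list 3 of 3 measured genes were clear, and their part in the spread of Cox6a2 was not tested.

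**Figure D5:**
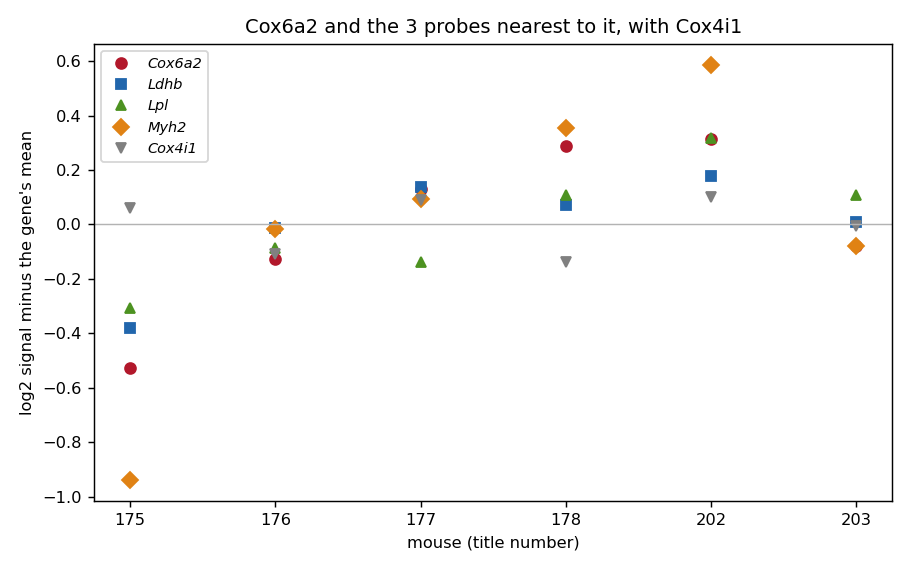
Log2 signal minus the gene's mean (vertical axis) in each mouse (horizontal axis, by title number) for Cox6a2, its 3 nearest probes Ldhb, Lpl and Myh2, and Cox4i1 in grey. Cox6a2, Ldhb, Lpl and Myh2 are lowest in sample 175 and highest in sample 202, while Cox4i1 is above its mean in both. The 3 nearest probes were picked by their steady ratio to Cox6a2 in these same mice.

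The rest of the oxidative pathway is thinly covered on the array. Of the 58 genes listed for oxidative phosphorylation the array held 4, all of them among the 7. Of the 27 genes of the citrate cycle and pyruvate entry it held 3, the third being Pcx, pyruvate carboxylase, which refills the cycle. Pcx gave 0.833 ± 0.151 per mille (SD, n = 6) and was not clear in all mice. Tfam, the factor that maintains and transcribes mitochondrial DNA, gave 0.7 ± 0.0894 per mille (SD, n = 6). The fatty acid receptor Ppara gave 0.917 ± 0.0983 and the hypoxia factor Hif1a 0.817 ± 0.117 per mille (SD, n = 6). None of these 3 regulators was clear in any mouse. Signals so near the floor do not show whether these genes were expressed. Ucp3, a carrier of the inner mitochondrial membrane in muscle, was clear in all mice at 2.63 ± 0.497 per mille (SD, n = 6).

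Of the 4 genes of mitochondrial fatty acid oxidation on the array, Acadl, the long-chain acyl-CoA dehydrogenase, and Hadh were clear in all mice, and gave 2.93 ± 0.25 and 3.53 ± 0.301 per mille (SD, n = 6). Both had an SD of 0.12 on the log2 scale. The carnitine transferase Cpt1b gave 1.38 ± 0.117 and the medium-chain dehydrogenase Acadm 1.2 ± 0.0894 per mille (SD, n = 6). Cpt1b was clear in 4 mice and Acadm in 2. Ratios of the 7 genes to Acadl and Hadh had a median SD of 0.17, over 14 pairs, beside 0.23 for the 6 clear glycolytic genes, over 42 pairs, and 0.47 for the fast myosins, over 21 pairs. The clear genes of these lists themselves had median SDs of 0.12, 0.24 and 0.43 in the same order, and a wider probe gives a wider ratio. The order of the ratio medians alone therefore shows no shared movement. These medians are descriptions and their differences were not tested. Car3, which hydrates carbon dioxide and is the other measured gene of gas transport, gave 15.7 ± 2.31 per mille (SD, n = 6), and its highest mouse was sample 176 and its lowest sample 202, the highest mouse of Mb.

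Title numbers run from 175 to 178 in 4 mice and are 202 and 203 in the remaining 2. What separates these number runs is not stated in the labels. Whether the samples of the runs differed was checked over all probes with limma and Benjamini-Hochberg adjustment, as a check of the samples and no comparison of the study. In that comparison 6.28% of the 223 probes passed an adjusted p of 0.05, and 0 of the 7 genes did. At an unadjusted p under 0.05 there were 0 of the 7 and 51 of the 223. Values of the runs did not overlap in 21.1% of all probes, and overlapped or met in all 7 genes.

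Mb came closest to a difference. It gave a mean of 66.5 per mille in samples 202 and 203 against 54.8 in samples 175 to 178, a log2 difference of 0.28 ± 0.19 (SE) with a limma adjusted p of 0.34. The 95% interval ran from 0.923 to 1.59-fold, so that a difference of that size is not excluded by these 6 samples. Cox6a2 gave 54.9 against 49.1 per mille, a log2 difference of 0.18 ± 0.23 (SE, limma adjusted p = 0.631). The other 5 genes had log2 differences between -0.07 for Cox8a and 0.12 for Cox5b. The median difference over the 7 genes was 0.07, beside -0.18 over all probes and -0.05 over the clear ones. Of the other mitochondrial genes, Ucp3 and Pcx were lower in both late-numbered mice than in the first 4, with no overlap. Ucp3 gave 2.2 and 1.9 against 2.6 to 3.1 per mille (limma adjusted p = 0.108). Pcx, near the floor, gave 0.6 and 0.7 against 0.9 to 1 per mille (limma adjusted p = 0.106). With all 6 samples 14 probes passed, and the count was 8 without sample 175, 5 without 176, 20 without 177 and 11 without 178. It was 0 without sample 202 and 2 without 203, where 1 sample is left in that run and is assumed to vary like the others. In each of these 0 of the 7 genes passed.

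On the scale of the array total Mdh2 was the narrowest gene, and Cox5b and Pdha1 kept a steady ratio to it. Their promoter sequences are shown. They are the 250 bases before the annotated start, 5′ to 3′ on the strand of the gene, from RefSeq on GRCm38.p6: Mdh2 at chr5:135778399-135778648 on the plus strand, Cox5b at chr1:36691237-36691486 on the plus strand and Pdha1 at chrX:160138431-160138680 on the minus strand. Capitals mark matches to the motifs searched on both strands.
Mdh2: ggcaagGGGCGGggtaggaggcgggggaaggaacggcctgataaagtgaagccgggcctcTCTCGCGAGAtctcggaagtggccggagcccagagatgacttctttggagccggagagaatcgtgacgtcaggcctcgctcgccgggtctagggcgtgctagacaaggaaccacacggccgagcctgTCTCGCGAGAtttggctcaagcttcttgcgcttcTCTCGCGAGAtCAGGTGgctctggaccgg
Cox5b: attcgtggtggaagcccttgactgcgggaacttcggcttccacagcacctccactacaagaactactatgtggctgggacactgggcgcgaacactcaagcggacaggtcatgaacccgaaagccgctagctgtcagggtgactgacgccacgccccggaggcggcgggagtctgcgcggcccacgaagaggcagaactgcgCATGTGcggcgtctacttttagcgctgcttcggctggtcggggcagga
Pdha1: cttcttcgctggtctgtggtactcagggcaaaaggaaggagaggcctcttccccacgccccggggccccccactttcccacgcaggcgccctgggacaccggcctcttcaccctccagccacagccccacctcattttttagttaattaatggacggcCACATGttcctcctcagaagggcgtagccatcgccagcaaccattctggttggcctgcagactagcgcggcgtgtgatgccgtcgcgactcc
The table held 5 of the 7 genes, with 1 start each for Cox5b, Mdh2, Cox8a and Pdha1 and 3 for Mb. The searched letters were GCGCANGC for NRF-1, CCGGAAG for GABP, AAGGTCA for the oestrogen-related receptors and AANATGGC for YY1, which are factors known to regulate nuclear genes of mitochondria, and GGGCGG for SP1, TAAAAATA for MEF2 and CANNTG for E-boxes, the sites of myogenic factors. Matches were absent from the windows of these 5 genes for NRF-1, GABP, the oestrogen-related receptors, YY1 and MEF2, whose letters occur in 8.3%, 6.91%, 4.08%, 3.91% and 2.45% of all 32851 windows of the same length. An E-box was present in all 5 genes and in 66.2% of all windows. The SP1 letters were present in Mdh2 alone of the 5 genes and in 32.7% of windows. Mdh2 also held 3 copies of TCTCGCGAGA, a palindrome that occurs in 0.39% of windows, starting at bases -190, -63 and -29, where -1 is the last base before the start. Matches marked in the 3 sequences do not overlap each other. This palindrome was added to the search after the sequences were seen. A match describes letters in a window and is no evidence of binding, and the array data bear on none of these motifs directly.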

How the data were processed

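RNA of the soleus belly of 6 mice, 4 micrograms each, was reverse transcribed with gene-specific primers and a 32P-labelled nucleotide, per the labels' protocols. The authors deposited 1 linear signal for each of 223 probes and 6 samples. Without probes 1M and 1O the signals sum to 0.9986 to 1 on each array, so they were treated as parts of that total and multiplied to per mille. This was found from the values. No label names the scanner, background treatment or normalization. Precision is limited by the number of arrays, which have no spot replicates.

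Probes were named from the platform annotation, and 7 of 7 agreed by gene number with a table of GRCm38.p6. Signals were used as log2 with no pseudocount. The fit used limma 3.58.1 (lmFit, eBayes) in R 4.3.3 over all probes, tested on simulated data, and the rest Python 3.11.15. Named were the 7 genes, the measured genes of 5 lists (oxidative phosphorylation, citrate cycle, mitochondrial regulators, fatty acid oxidation, gas transport), the 3 clear probes nearest to each gene and the 5 nearest to their mean. Other names were chosen after values were seen. The genes and lists were chosen with earlier results of these data known. Alternatives were 4 scalings, floor subtraction, a pseudocount, a filter, another measure of spread, leaving out mice and the number runs. The series text calls the samples biological replicas.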

Additional observations from a re-analysis of the deposited data

Results flagged for a closer look

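A signal was singled out when the gap between its highest or lowest mouse and the nearest other mouse was a larger part of the range than Dixon's test at 95% allows in a set of 6. Among 39 sets of values examined there were 2 such cases, where chance gives about 1.95, and the sets share the same 6 arrays. None was a signal of the 7 genes, a ratio between them or their total. Hif1a was lowest in sample 202, with 0.6 per mille against 0.8 to 0.9 in the others (gap 0.667). Cpt1b was highest in sample 202, with 1.6 per mille against 1.3 to 1.4 (gap 0.667). Hif1a was clear of the floor in no mouse and Cpt1b in 4, and their values move in steps of 0.1 per mille.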

How the results depend on the processing

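The median SD of the 7 genes, 0.11, was 0.20 after median centring and 0.24 after division by the floor, over 1.5 times as large, and was within 1.5 times under 8 of 10 alternatives other than leaving out a mouse. The median ratio SD of their pairs, 0.20, ran from 0.14 to 0.28 under these 10. The filter for clear probes cannot change either median, because all 7 genes are clear. Scalings other than quantile normalization cannot change a ratio, so that their agreement for pairs was fixed in advance. Leaving out each mouse gave 0.09 to 0.12 and 0.15 to 0.21. A term for the number run was added after the data were seen. Between number runs 14 probes passed; 22 passed with arrays divided by their floor, 2 of 57 when only clear probes were tested, and 0 to 20 when a mouse was left out. The 7 genes gave 0 calls under all 7 alternatives and without any mouse, with a smallest limma adjusted p of 0.16, for Mb without sample 203. Signs of differences near 0 turned: with quantile normalization Cox6a2 had -0.14 and Mdh2 -0.18, with arrays centred on their median Cox8a had 0.01 and Pdha1 0.04, and with arrays divided by their floor Cox8a had 0.17 and Pdha1 0.20. Leaving out a mouse gave -0.02 to 0.37 for Cox6a2, -0.03 to 0.04 for Mdh2 and -0.13 to 0.04 for Pdha1. The cause of these changes was not tested. The MAD gave 0.04 for Cox5b. Signals near the floor of 0.5 to 0.7 per mille limit what Pcx, Tfam, Ppara and Hif1a can show. No paired analysis was possible because the labels give 1 group.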
